A study of Bos taurus with 4 samples.

Results

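RAB proteins are small GTPases that act as switches of membrane traffic. Bound to GTP a RAB sits on one kind of vesicle or organelle and recruits effectors that move, tether or fuse it, exchange factors load the GTP, and GTPase-activating proteins end the signal. A prenyl anchor, added by geranylgeranyl transferase with the help of a RAB escort protein, holds the RAB on the membrane, and GDP dissociation inhibitors take it off again. In the male germ line RABs are known from the building of the acrosome out of Golgi vesicles and from acrosomal exocytosis, in which RAB3A and RAB27 proteins act. The RAB genes were taken as every non-control probe of the array whose gene name is RAB followed by a number and at most 1 letter. This gave 54 genes with 113 probes, of 32429 gene names with 51282 probes in all.

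The RNA came from Percoll-selected spermatozoa of Murrah buffalo bulls that were classed by their field conception rate. The 2 high-fertile pools and the 2 low-fertile pools each mixed equal amounts of RNA from 2 bulls, and all bulls were breeding males. Each of the 4 pools was labelled with 1 dye and hybridized to its own array, with 60-base probes designed on cattle transcripts, so a buffalo transcript that differs from the cattle probe can bind less well. A pool is the replicate, and 2 pools cannot show the spread between single bulls.

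All arrays lay on 1 slide and were read in 1 scan. The high-fertile arrays were in slide row 1 and the low-fertile arrays in row 2, so position and fertility group cannot be told apart. The scanner software marked 23271 and 23228 probes as well above background in high-fertile pools 1 and 2, and 25642 and 13033 in low-fertile pools 1 and 2. Of 20 sperm and spermatid markers on the array 9 could be tested, of which 0 were lower and 1 was higher in the low-fertile pools, with a median log2 fold change of 0.07. That one, PRM1, which encodes a protamine of sperm chromatin, had normalized log2 signals of 0.35 and 0.32 (high-fertile) against 0.95 and 1.07 (low-fertile). PRM2, PRM3, TNP2, AKAP3, AKAP4, SPATA18, SMCP, LDHC, PGK2, TSSK6 and SPAG16, the other sperm and spermatid markers, had no tested probe. Of the 8 tested leukocyte markers 0 were lower and 1 was higher (12.5%), with log2 fold changes from -0.46 for CD4 to 0.78 for PTPRC, a surface phosphatase of blood cells. PTPRC read 7.57 and 7.59 against 8.28 and 8.45 (adjusted p = 0.0160). The summed signal of the 8 tested leukocyte markers of 10 was 9.26 and 9.19 against 9.64 and 9.77 on the log2 scale, that of the 4 tested epithelial markers of 6 was 4.52 and 4.49 against 4.57 and 4.73, and HBB, the beta chain of haemoglobin, was higher in the low-fertile pools (log2 fold change 1.24, adjusted p = 0.0118), 1 of the 2 tested red cell markers of 4. It was well above background in 1 of 2 high-fertile pools, so that it was tested through the low-fertile pair alone and the filter favoured this direction. The other, HBA, the alpha chain, read 1.91 and 2.80 against 2.06 and 2.30 (log2 fold change -0.17, adjusted p = 0.705). The part of other cells in the results on the RAB genes was not tested, and in pooled RNA fewer cells of a type and less RNA per cell cannot be told apart.

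The probes are what the arrays hold for a RAB gene. The first set comes from 3 of the genes past the threshold. The probe of RAB20, on the minus strand of chr12:83290006-83290065 in the cattle build Btau_3.1, covers the loop that binds the phosphates of GTP, whose codons are in capitals:
RAB20: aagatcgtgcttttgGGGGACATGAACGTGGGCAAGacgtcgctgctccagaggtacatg
The probes of RAB9B (chrX:33982117-33982176, plus strand) and RAB7B (chr16:2760940-2760999, minus strand) hold none of the motifs searched, and 1 of their 3 frames has no stop codon:
RAB9B: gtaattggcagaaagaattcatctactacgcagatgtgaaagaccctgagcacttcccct
RAB7B: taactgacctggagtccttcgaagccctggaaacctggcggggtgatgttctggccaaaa

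The second set shows the other motifs of the GTP pocket in RAB probes, with the motif in capitals. The RAB5A probe (chr1:160743954-160744013, plus strand) holds the switch II motif, and the RAB2A probe (chr14:26064823-26070933, plus strand, across an intron) and the RAB2B probe (chr10:25099566-25099625, plus strand) hold the loops that read the guanine base. The printed RAB5A probe was well above background on no array and the printed RAB2A probe in low-fertile pool 1 only, so that neither was tested, and the value of RAB2A comes from another probe:
RAB5A: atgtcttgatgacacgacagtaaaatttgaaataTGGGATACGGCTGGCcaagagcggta
RAB2A: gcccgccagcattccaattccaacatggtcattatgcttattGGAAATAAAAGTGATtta
RAB2B: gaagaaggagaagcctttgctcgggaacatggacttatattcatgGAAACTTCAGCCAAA
On either strand of the 60 bases, the phosphate-binding loop (GGNNNNNNNNNNNNNGGNAAN) was found in 2 RAB probes (1.77%) and 2.17% of all probes. The switch II letters (TGGGANACNGCNGGN) were in 2 RAB probes (1.77%) and 0.0137% of all probes. The first guanine-binding loop (GGNAANAANNNNGAN) was in 2 RAB probes (1.77%) against 0.353%, and the second (GANNCNNNNGCNAAN) in 5 RAB probes (4.42%) against 0.513%. A match is a description of the probe, and most RAB probes lie outside these short stretches.

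Paralogs shared little probe sequence. The only pair of probes of different RAB genes with at least 80% matching bases over an overlap was that of RAB4A and RAB4B, which matched at 44 of 55 aligned bases. Neither of these 2 probes was tested.

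Part of the family was seen in these sperm RNA pools, at a share of genes close to that of the whole array. A gene was tested when at least 1 of its probes was well above background on both arrays of a group, which held for 27 of 54 RAB genes (50%) and 16685 of all 32429 genes (51.4%). For 17 RAB genes no probe was well above background on any array, and 10 others had a mark on at least 1 array but not on both of a group. Counted by probes, the share marked in the family against that of all probes was 36.3% against 45.4% in high-fertile pool 1, 38.1% against 45.3% in high-fertile pool 2, 44.2% against 50% in low-fertile pool 1 and 15.9% against 25.4% in low-fertile pool 2. These shares are given as a description, with no test. Of the 113 RAB probes 12 were marked only in low-fertile pool 1, 2 only in high-fertile pool 1, 5 only in high-fertile pool 2 and 0 only in low-fertile pool 2.

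**Figure D1:**
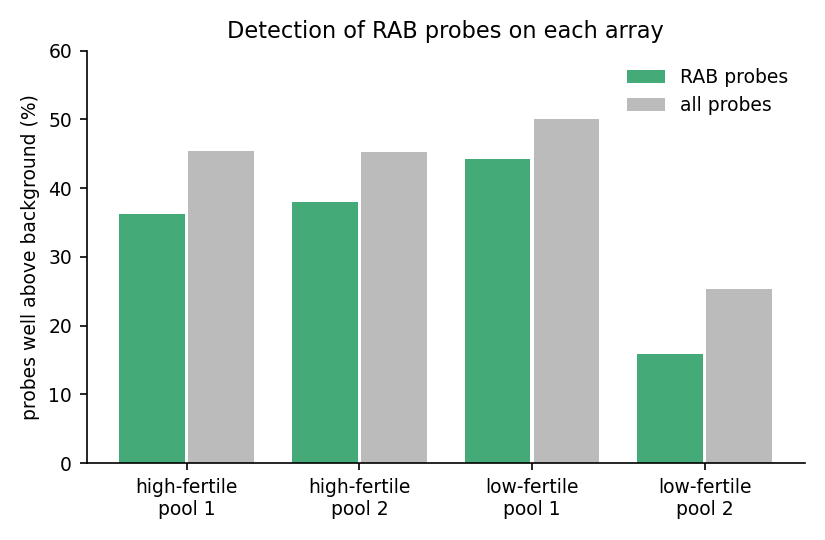
Share of RAB probes (green, of 113) and of all probes (grey, of 51282) marked as well above background on each array, in percent. The RAB share lies below that of all probes on each of the 4 arrays, and both are lowest in low-fertile pool 2, at 15.9% and 25.4%.

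The RABs best known from exocytosis of the acrosome were not measurable. RAB3A, RAB27A and RAB27B, and RAB11A of the recycling endosome, had no probe well above background in any pool. RAB3A had 1 probe, with processed signals of 4.42 and 13.1 (high-fertile) against 14.6 and 13.4 (low-fertile), against an array 75th percentile of 36.7, 37.1, 37.0 and 32.7. RAB7A, the RAB of the late endosome, was marked in high-fertile pool 2 and low-fertile pool 1 by its probe at chr22:61004433-61004492, where its normalized log2 signals were -1.09, -0.62, -0.37 and -1.66 in the order high-fertile 1 and 2, low-fertile 1 and 2, and it was not tested. These genes were too dim for a comparison here, which does not show that their transcripts were missing.

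**Figure D2:**
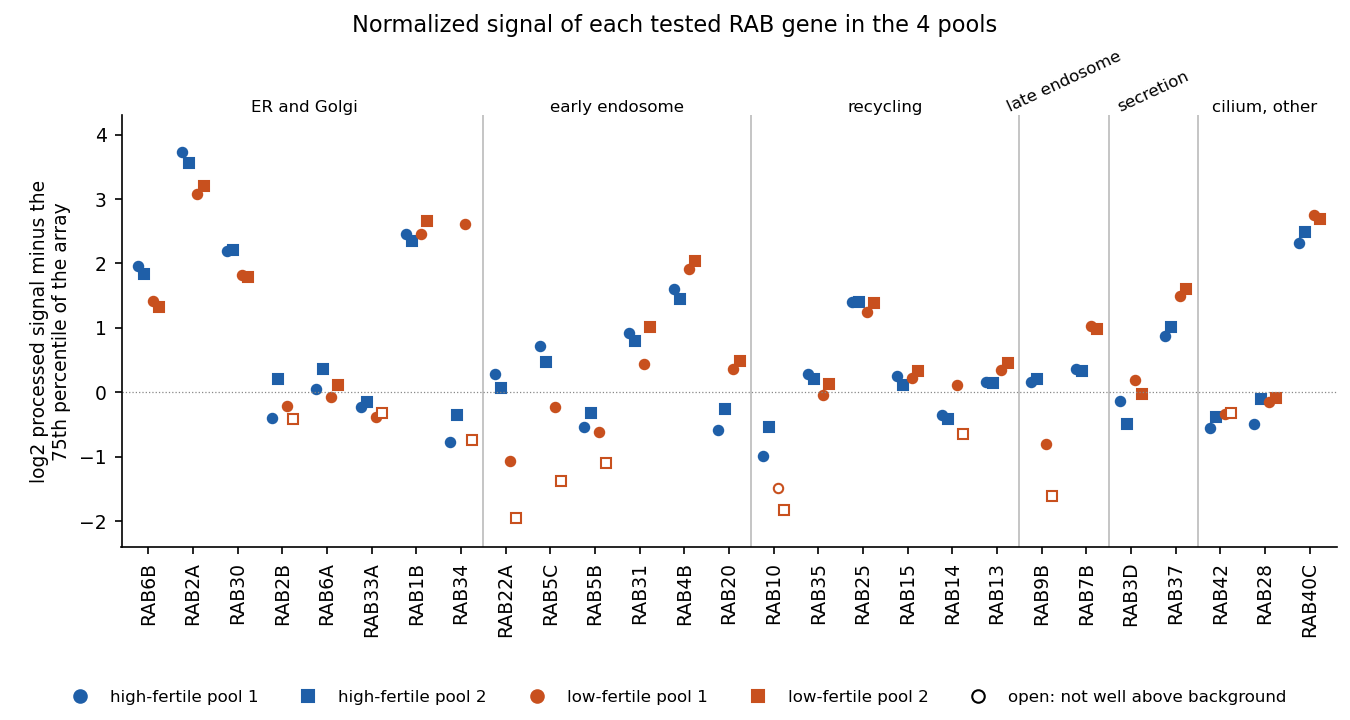
Normalized log2 signal (log2 processed signal minus the 75th percentile of the array) of the brightest tested probe of each of the 27 tested RAB genes in the 4 pools, grouped by role. Open symbols are arrays on which the probe was not well above background, and levels of different probes cannot be set against each other. The low-fertile pools lie apart below the high-fertile pools for RAB22A, RAB5C, RAB9B, RAB10 and RAB6B and apart above them for RAB20, RAB7B and RAB37.

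Of the 27 tested RAB genes 8 differed between low- and high-fertile pools at an adjusted p under 0.05 in limma, each read from its brightest tested probe. This is 29.6%, against 26.1% of all tested genes. RAB22A, RAB5C, RAB9B, RAB10 and RAB6B were lower in the low-fertile pools (5 genes, 18.5% against 16.6% of all genes), and RAB20, RAB7B and RAB37 were higher (3 genes, 11.1% against 9.53%). Both shares lie near those of the array. The log2 fold changes, low-fertile minus high-fertile, were negative for 14 and positive for 13 of the 27 genes with a median of -0.08, against 0.01 over all tested genes. The pools of the 2 groups did not overlap for 19 RAB genes, while 69.4% of all tested genes showed this. Through the high-fertile pair alone 10 of the 27 genes had qualified, and 0 through the low-fertile pair alone, so that for these 10 genes the filter itself favoured a lower value in the low-fertile pools. They include 4 of the 5 lower genes, RAB22A, RAB5C, RAB9B and RAB10, so the count of lower genes is a description. RAB6B alone of the 5 was well above background on all 4 arrays.

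Among the 17 RAB genes whose brightest tested probe was well above background on all 4 arrays, the log2 fold change was negative for 7 and positive for 10. With the fit restricted to such probes, 3 RAB genes were lower (RAB6B, RAB2A and RAB30, against 12.3% of all 10639 genes) and 4 were higher (RAB20, RAB7B, RAB37 and RAB4B, against 21.6%).

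RABs of the early endosome and uptake had log2 fold changes from -1.68 to 0.85 over 6 tested genes of 9, with 2 lower and 1 higher. RAB22A, which acts on early and recycling endosomes, had normalized log2 signals of 0.28 and 0.07 (high-fertile) against -1.06 and -1.95 (low-fertile). The log2 fold change was -1.68 (SE 0.31, adjusted p = 0.0147) by a probe at chr13:58767418-58767477 that was well above background in 1 of 2 low-fertile pools. With normexp background correction of the spot signals it was -0.999 (adjusted p = 0.00320), with an offset of 50 added to the processed signal -0.51 (adjusted p = 0.00490), and with normexp and that offset together -0.45 (adjusted p = 0.00356). An offset draws low signals together by construction. The pools did not overlap, and the low-fertile pools lay farther from each other (SD 0.63, n = 2) than the high-fertile pools (SD 0.15, n = 2). RAB5C, which drives fusion of early endosomes, read 0.73 and 0.47 against -0.23 and -1.37 by its probe at chr19:43592841-43592900, again marked in 1 of 2 low-fertile pools. It gave a log2 fold change of -1.40 (SE 0.38, adjusted p = 0.0461), and low-fertile pool 2 was the lowest of the 4. With normexp it was -0.92 without the offset and -0.45 with it, and the call was lost with quantile normalization (adjusted p = 0.0533), with the 75th percentile over probes marked on all arrays (0.0965) and in the deposited table (0.0574). The 2 other RAB5C probes were not tested, and both had a higher mean in the low-fertile pools. The one at chr19:43595792-43596055, marked in low-fertile pool 1 only, read -0.93 and -1.59 against -0.92 and -0.53. The one at chr19:43593432-43593491, marked on no array, read -0.96 and -2.43 against -1.36 and -0.97. The related RAB5B had a log2 fold change of -0.43 (adjusted p = 0.179), and RAB5A was not well above background in any pool.

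RAB20, which is known from early endosomes and phagosomes, went the other way. Its normalized log2 signals were -0.58 and -0.25 (high-fertile) against 0.37 and 0.49 (low-fertile), all well above background, by the probe over the phosphate-binding loop printed above. The log2 fold change was 0.85 (SE 0.17, adjusted p = 0.0209), with both low-fertile pools above both high-fertile pools. It was 0.33 with normexp and the offset, 0.67 with normexp alone, and 0.48 with spike-in normalization, where it was not called (adjusted p = 0.0841). The second tested RAB20 probe, at chr12:83260159-83260218, gave -0.33 and -0.34 against -0.18 and 0.01, a log2 fold change of 0.25 (adjusted p = 0.254), so the tested probes agreed in direction and not in size. The untested RAB20 probe, at chr12:83260250-83260309, was marked in pool 1 of each group and read -0.62 and -1.52 against -0.58 and -1.50. RAB4B of the rapid recycling route read 1.61 and 1.45 against 1.91 and 2.04 (log2 fold change 0.45, adjusted p = 0.0804) and was called higher with an intensity trend, with the offset alone and with probes marked on all arrays only, and RAB31 had a log2 fold change of -0.13 (adjusted p = 0.685).

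Late endosomal RABs were represented by 2 tested genes of 7, which moved in opposite directions. RAB9B, a paralog of the RAB9A that returns cargo from late endosomes to the Golgi, had normalized log2 signals of 0.16 and 0.21 (high-fertile) against -0.81 and -1.61 (low-fertile), with 1 of 2 low-fertile pools well above background. The log2 fold change was -1.39 (SE 0.28, adjusted p = 0.0194). With normexp it was -0.80 without the offset and -0.35 with it, and the call was lost with the 75th percentile over probes marked on all arrays (adjusted p = 0.0533). A second probe, at chrX:33982494-33982553, read -0.81 and -0.52 against -2.94 and -2.09, where neither low-fertile pool was well above background. Its adjusted p was 0.0106, and its signal was 2.91-fold lower by the rule for dim probes, which gives no strict bound. Both probes had qualified through the high-fertile pair alone, so the shared direction is a description. RAB7B, which acts between late endosomes, lysosomes and the Golgi, read 0.36 and 0.34 (high-fertile) against 1.03 and 0.98 (low-fertile), all well above background. It had a log2 fold change of 0.65 (SE 0.14, adjusted p = 0.0233), and the values within each group were close (SD 0.02 and 0.03, n = 2 each). It was 0.24 with normexp and the offset, 0.42 with normexp alone, and 0.28 with spike-in normalization, where it was not called (adjusted p = 0.167).

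RABs of recycling and surface delivery had 6 tested genes of 11, of which 1 was lower and 0 higher. RAB10, which brings vesicles to the plasma membrane, had normalized log2 signals of -0.99 and -0.54 (high-fertile) against -1.48 and -1.83 (low-fertile) by its probe at chr11:75438715-75438774. Neither low-fertile pool was well above background. The dim signals lay above the lowest marked signal of their arrays, so the rule for other dim probes left them as they were. The log2 fold change was -0.89 (SE 0.22, adjusted p = 0.0359), whose size is uncertain because both low-fertile signals were dim. With normexp it was -0.62 without the offset and -0.23 with it, and the call was lost with the offset alone (adjusted p = 0.0862), with the 75th percentile over probes marked on all arrays (adjusted p = 0.0752), quantile normalization (0.0514) and an intensity trend in eBayes (0.0674). RAB35, RAB25, RAB15, RAB14 and RAB13 had log2 fold changes from -0.20 to 0.24 and none passed the threshold, although the pools of RAB35, RAB25 and RAB13 did not overlap. The epithelial RAB25 read 1.40 and 1.41 against 1.25 and 1.40.

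RABs of the path from the endoplasmic reticulum to and within the Golgi made up the largest group, with 8 tested genes of 14, of which 1 was lower, 0 higher and 6 negative. RAB6B, a Golgi RAB, read 1.96 and 1.83 (high-fertile) against 1.41 and 1.32 (low-fertile) by its probe at chr1:137931286-137931345, all well above background. The pools did not overlap and the log2 fold change was -0.53 (SE 0.15, adjusted p = 0.0486), just past the threshold. The call was lost with the 75th percentile over probes marked on all arrays (adjusted p = 0.0748), quantile normalization (0.0571) and a replicate block (0.0755). The paralog RAB6A read 0.06 and 0.36 against -0.08 and 0.12, overlapping between the groups (log2 fold change -0.19, adjusted p = 0.460).

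RAB2A, which works between the endoplasmic reticulum and the Golgi, was measured by a probe at chr14:26091294-26091353. It read 3.73 and 3.55 (high-fertile) against 3.08 and 3.21 (low-fertile), a log2 fold change of -0.50 (SE 0.15, adjusted p = 0.0646), which does not pass the threshold although the pools are apart. The other RAB2A probes, each marked in low-fertile pool 1 only and not tested, had a higher mean in the low-fertile pools. The one at chr14:26064823-26070933, printed above, read -1.68 and -1.71 against -0.38 and -0.64. The one at chr14:26091321-26091380 read -2.38 and -2.31 against -1.10 and -2.42. By the tested probe RAB2A was called lower with normexp with the offset (adjusted p = 0.00531) and without it (0.0321), and with the offset alone (0.00538). The same held with quantile (0.0480) and spike-in normalization (0.0124), an intensity trend (0.0167) and probes marked on all arrays only (0.0304). RAB30, also of the Golgi, read 2.19 and 2.21 against 1.82 and 1.80 (log2 fold change -0.39, adjusted p = 0.0913), and was called lower in those settings other than quantile normalization. After a correction for probe GC content, described below, its log2 fold change was 0.36 (adjusted p = 0.107). RAB1B, which starts transport out of the endoplasmic reticulum, read 2.45 and 2.36 against 2.45 and 2.66 (log2 fold change 0.15, adjusted p = 0.502). Its near twin RAB1A was marked on 1 array only and was not tested.

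RAB34, known from the Golgi and from cilium formation, had 1 array that stood apart. Its probe at chr19:20030107-20030166 read -0.76 and -0.35 (high-fertile) against 2.62 and -0.73 (low-fertile), so that low-fertile pool 1 alone stood above the rest. The log2 fold change of 1.50 had an SE of 1.03 and an adjusted p of 0.317. There, 3 of its 6 neighbouring spots were also off by over 2 log2 units. With spots on such bright patches left out the log2 fold change was -0.17 (adjusted p = 0.636). Without low-fertile pool 1 it was -0.18 (adjusted p = 0.615), and without low-fertile pool 2 it was 3.17 (adjusted p = 0.00436).

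Of the RABs of regulated secretion only RAB3D and RAB37 were tested among 8 genes, both with positive fold changes. RAB37, known from exocytosis of secretory granules in mast cells, read 0.88 and 1.02 (high-fertile) against 1.50 and 1.60 (low-fertile) by its probe at chr19:58325795-58325854, all well above background. The groups did not overlap, and the log2 fold change was 0.60 (SE 0.15, adjusted p = 0.0352). It was 0.25 with normexp and the offset and 0.23 with spike-in normalization, where it was not called (adjusted p = 0.218). The call was also lost with normexp alone (0.38, adjusted p = 0.0509) and with a replicate block (adjusted p = 0.0536). This probe was 1 of the 4 RAB probes with no RefSeq match and rests on the gene name in the files. RAB3D, a secretory granule RAB, read -0.13 and -0.50 against 0.19 and -0.02 (log2 fold change 0.40, adjusted p = 0.174). Among the remaining 5 genes, linked to cilia or of other roles, RAB42, RAB28 and RAB40C were tested and none passed the threshold. RAB40C, a RAB with a SOCS box that joins ubiquitin ligases, read 2.32 and 2.48 against 2.75 and 2.69 (log2 fold change 0.32, adjusted p = 0.167).

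**Figure D3:**
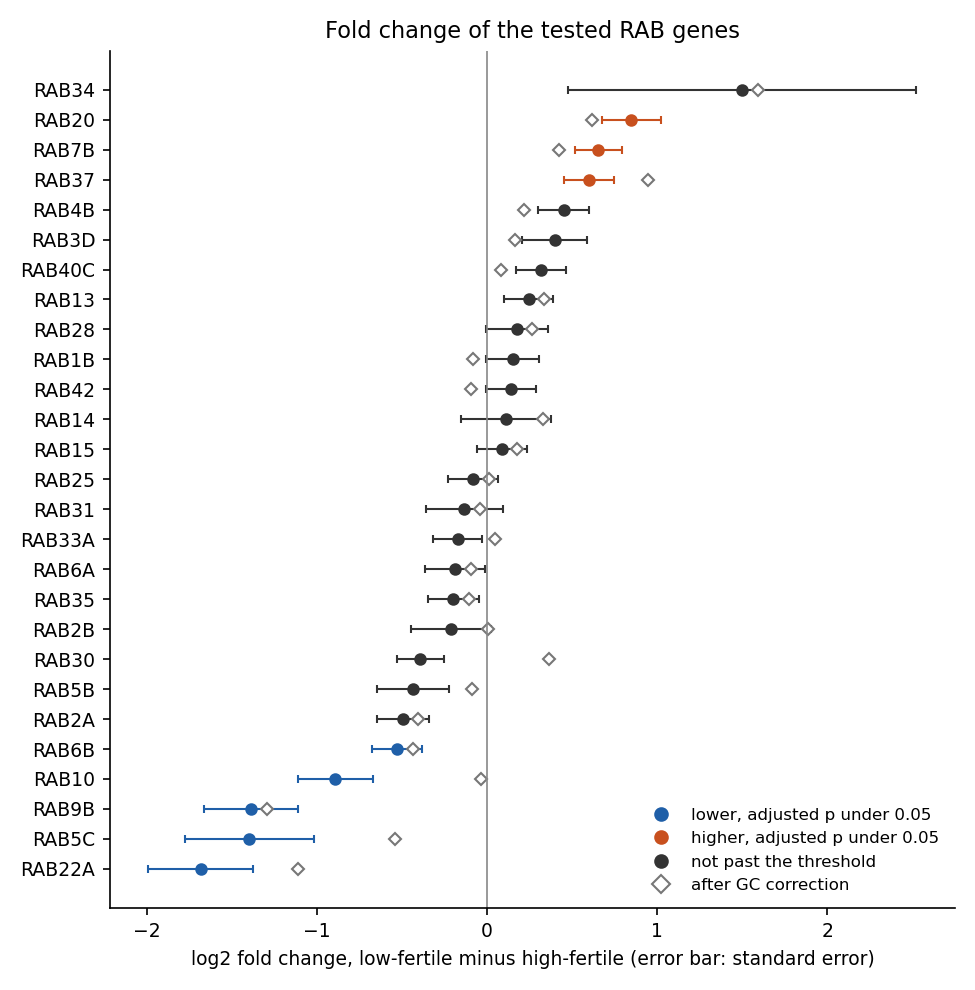
Log2 fold change (low-fertile minus high-fertile) of the 27 tested RAB genes with its standard error from limma (2 pools a group), and the value after a correction for probe GC content (open diamonds). The 5 lower genes run from -1.68 to -0.53 and the 3 higher genes from 0.60 to 0.85. RAB34 has the largest positive value and the widest error, and RAB10 moves to -0.04 after the correction.

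The fold changes of RAB probes moved with their base composition. Pearson's r between GC content and log2 fold change was 0.61 over the 27 tested RAB genes and 0.44 over all 21033 tested probes, as a description, since probes on the same arrays share pools and GC content. Over all tested probes the median log2 fold change was -0.87 at 35% GC, -0.09 at 45% and 0.23 at 55%. The probes of the 5 lower RAB genes had 35% to 45% GC and those of the 3 higher genes 41.7% to 55%. RAB9B and RAB6B, at 45%, lay below the median of probes with that GC content, RAB37, at 41.7%, lay above it, and RAB10, at 35%, lay at it. The part of GC content in the result was not tested beyond a correction fitted over all tested probes. After it RAB9B (log2 fold change -1.30, adjusted p = 0.0364) and RAB37 (0.94, adjusted p = 0.0156) passed the threshold. RAB22A (-1.11, adjusted p = 0.0639), RAB5C (-0.54, adjusted p = 0.329), RAB10 (-0.04, adjusted p = 0.912), RAB6B (-0.44, adjusted p = 0.0836), RAB20 (0.62, adjusted p = 0.0642) and RAB7B (0.42, adjusted p = 0.0826) did not. Of all genes 11.4% were lower and 8.65% higher after the correction.

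**Figure D4:**
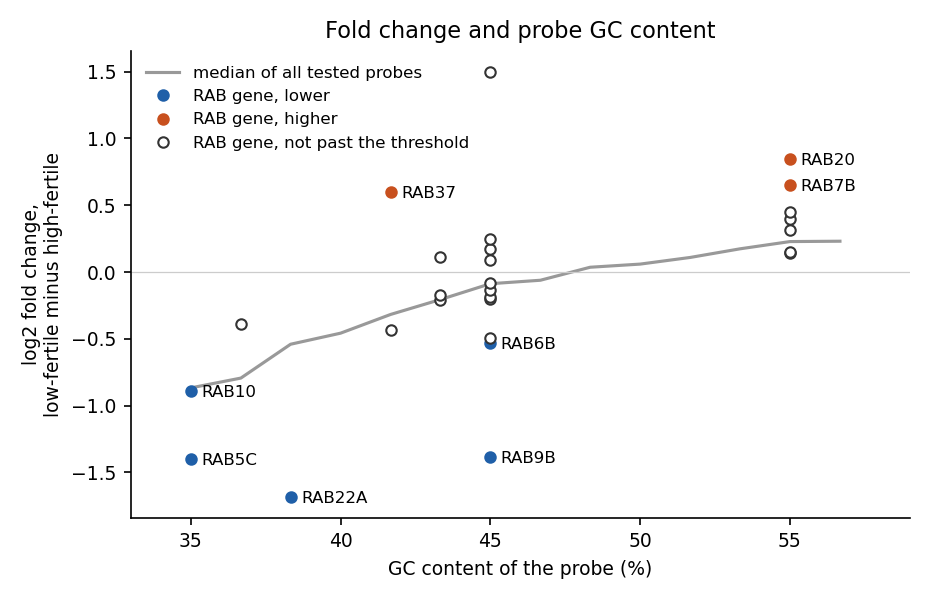
Log2 fold change (low-fertile minus high-fertile) against probe GC content in percent for the 27 tested RAB genes, with the median of all tested probes at each GC content (grey line). The line rises from -0.87 at 35% to 0.23 at 55%, and RAB22A, RAB5C and RAB9B lie farthest below it.

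No call among the 8 genes held in each fit that left out 1 pool. Fewer of all genes passed in these fits as well, so the loss of calls was not particular to RAB genes. Without high-fertile pool 1 the log2 fold change was -1.57 for RAB22A, -1.41 for RAB9B, -1.115 for RAB10 and 0.68 for RAB20. Without high-fertile pool 2 it was -1.79, -1.36, -0.67 and 1.01 in the same order. Without low-fertile pool 1 it was -2.125, -1.79, -1.07 and 0.91. Without low-fertile pool 2, the pool with the fewest probes above background, it was -1.24, -0.99, -0.72 and 0.79. The adjusted p of the 8 genes in these fits ran from 0.00514 for RAB22A to 0.192 for RAB6B. The log2 fold change of RAB5C was -0.83 without low-fertile pool 2 and -1.97 without low-fertile pool 1. With 2 pools a group, the smallest two-sided p of an exact permutation test is 0.333.

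**Figure D5:**
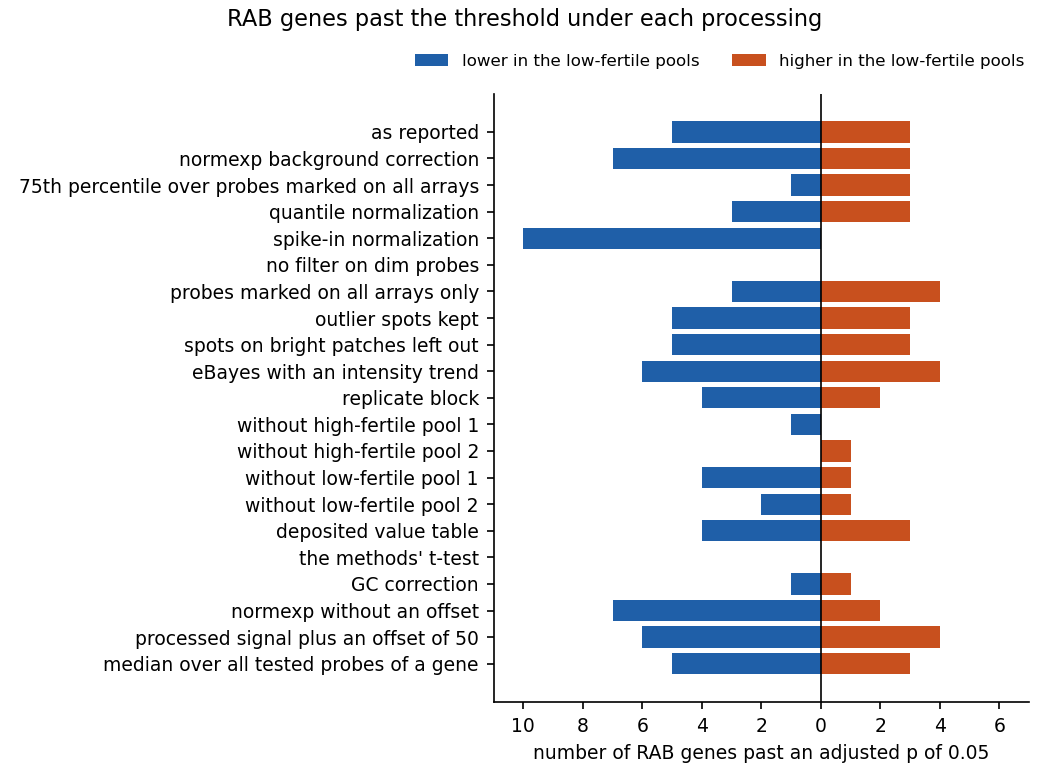
Number of RAB genes past an adjusted p of 0.05 that were lower (left) or higher (right) in the low-fertile pools, as reported and under each of 20 other ways of processing the arrays. The reported counts are 5 and 3. The lower count ranges from 0 to 10 and the higher count from 0 to 4. Over the same settings 0% to 31.4% of all genes were lower and 0% to 21.6% higher.

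Several RAB genes had more than 1 tested probe, and these did not always read alike. Of 6 such genes 3 had probes of opposite sign. RAB15, tied to recycling in neurons, has 2 probes on the same cattle bases, chr10:79313957-79314016, that differ by G58A (the first probe's base, the position from its 5′ end, the second probe's base). The first read -0.48 and -0.21 against -0.71 and -0.99 (log2 fold change -0.51, adjusted p = 0.0939), and the second read -0.28 and -0.28 against -0.50 and -0.07 (log2 fold change -0.01, adjusted p = 0.979). Neither passed the threshold, and the values differed mainly in low-fertile pool 2, where neither was well above background. RAB13, a RAB of cell junctions, has 2 probes that share 48 bases, with log2 fold changes of -0.12 (adjusted p = 0.581) and 0.27 (adjusted p = 0.328). The tested RAB2A probe shares 33 bases with another RAB2A probe that was marked in low-fertile pool 1 only. The mean of that other probe was -2.35 in the high-fertile and -1.76 in the low-fertile pools.

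Of the proteins that work on RABs, 142 were listed, 133 were on the array and 76 had a tested probe, of which 11 were lower (14.5%) and 10 higher (13.2%), against 16.6% and 9.53% of all genes. Through the high-fertile pair alone 23 of the 76 had qualified, among them 9 of the 11 lower genes, so that the filter favoured their direction and this count too is a description. Their median log2 fold change was 0.14. Genes of prenylation and membrane cycling had 6 tested genes of 9, of which 3 were lower, 0 higher and the median was -0.48. RABGGTB, the beta subunit of the geranylgeranyl transferase, read -0.25 and -0.62 against -1.94 and -2.45, with neither low-fertile pool well above background. By the rule for dim probes it was 3.34-fold lower (adjusted p = 0.00616), in the direction the filter favoured. CHML, a RAB escort protein, read 1.20 and 1.11 against 0.22 and 0.19 (log2 fold change -0.95, adjusted p = 0.00822), and GDI2, a GDP dissociation inhibitor, read 0.64 and 0.48 against 0.05 and 0.02 (log2 fold change -0.53, adjusted p = 0.0492). RABGGTA, the alpha subunit, had a log2 fold change of -0.43 (adjusted p = 0.0741). Probes of the 3 lower genes had 35% to 40% GC, and the part of GC content in their change was not tested.

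The other lists were mixed in direction. Exchange factors had 25 tested genes with 2 lower and 2 higher, GTPase-activating proteins 23 with 2 lower and 4 higher, and effectors 22 with 4 lower and 4 higher. RABGAP1L, a GTPase-activating protein, read 1.32 and 1.31 against -1.05 and -1.03, with 1 of 2 low-fertile pools well above background (log2 fold change -2.36, adjusted p = 0.00221, 35% GC), and had also qualified through the high-fertile pair alone. SYTL3, an effector of RAB27 proteins, was 3.04-fold lower by the rule for dim probes (adjusted p = 0.00259). Neither low-fertile pool was well above background, so that SYTL3 too was tested through the high-fertile pair alone. Among genes past the threshold, the 3 largest changes upward were those of SBF1, an exchange factor (log2 fold change 0.96, adjusted p = 0.0132), and of the GTPase-activating proteins SGSM3 (0.92, adjusted p = 0.0237) and TBC1D5 (0.89, adjusted p = 0.0109). In all 3 both low-fertile pools lay above both high-fertile pools.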

How the data were processed

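The authors scanned the arrays, extracted the images with Agilent Feature Extraction 11.5.1.1 and shifted log2 signals by the 75th percentile of each array in GeneSpring. The deposited scanner files hold linear intensity values with the background subtracted, and a deposited table holds the shifted log2 values. From the scanner files, spots marked as outliers by the scanner were dropped, replicate spots were averaged as log2 values of the processed signal, and each array was shifted by its 75th percentile over sample probes. A probe was marked where at least 0.5 of its spots were well above background and tested where it was marked on both arrays of at least 1 group (21033 probes, none saturated). The groups were compared in limma 3.58.1 (R 4.3.3; Python 3.11.15, pandas 2.3.3, numpy 2.4.6) with lmFit, eBayes (prior 3.52 degrees of freedom) and Benjamini-Hochberg adjustment over all tested probes, and a gene was read from its brightest tested probe. The fit was run on data simulated from its own model with large added changes, which checks the code and not the calls reported here.

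The members, role groups and lists were chosen with earlier results of these data known. Genes named are those past the threshold, the 5 with the highest mean probe signal (levels of different probes are not compared), RABs known from the acrosome or core traffic, and the 3 largest changes past the threshold in each direction among regulators; RAB5A, RAB5B, RAB31, RAB35, RAB25, RAB15, RAB13, RAB34, RAB3D, RAB1A and the other prenylation genes were added after their values were seen. Where no array of a group was marked, the fold follows a rule for dim probes. It sets the mean of the marked group against the mean, per array, of the higher of the probe's own signal and the lowest signal of any marked probe. This fold is no strict bound, since unmarked probes can read above that lowest signal. In low-fertile pool 2 an unmarked RAB13 probe read 0.08, where the lowest marked signal was -2.41. Of the 113 RAB probes 109 were matched to RefSeq by accession (names only), 2 of them to RAB39A in place of RAB39. Coordinates are those of the files (Btau_3.1), which give no exon or UTR, and 3 probes have none. Pool numbers did not pair the arrays (r = 0.005 over 21024 probes).

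Alternatives covered background correction (normexp with an offset of 50), scaling, the filter, outlier spots, bright patches (2 or more of 6 neighbouring spots deviating by more than 2 log2 units), the variance model, a replicate block, each pool left out, the deposited table, the methods' t-test, the choice of probe and, added with the data known, a GC correction, normexp without the offset and the offset alone. With arrays the number of pools limits the precision. No protein or promoter sequence was used here.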

Additional observations from a re-analysis of the deposited data

Results flagged for a closer look

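The probe of RAB23, a RAB linked to cilia and Hedgehog signalling, was outside the comparison because it was well above background on 1 array only. Its normalized log2 signal was 1.26 in low-fertile pool 1. The other arrays, none well above background, read -2.67 and -3.13 (high-fertile) and -2.35 (low-fertile pool 2). It was singled out because a signal outside the tested probes stood above the control arrays. Of the 6 spots around it there, 3 were also off by over 2 log2 units, as for RAB34. The part of the neighbouring spots in this value was not tested.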

How the results depend on the processing

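The counts of called RAB genes depended on the processing, and the cause was not tested. With the 75th percentile taken over probes marked on all arrays 1 gene was lower (RAB22A), against 14.1% of all genes, and 3 were higher, against 9.73%. With quantile normalization 3 were lower (RAB22A, RAB9B and RAB2A), against 15.9% of all genes, and 3 were higher, against 10.5%. With probes marked on all arrays only 3 were lower, against 12.3%, with a median log2 fold change of 0.15 for RAB genes and 0.15 for all genes. Normalization to the spike-in probes shifted the median of all genes from 0.01 to -0.36 and gave 10 lower and 0 higher RAB genes with a median of -0.45, against 31.4% of all genes lower and 2.92% higher. With that shift 7 RAB genes changed sign, among them RAB40C (-0.055) and RAB1B (-0.22). Normexp background correction with an offset of 50 changed 2 choices at once and gave 7 lower and 3 higher genes, against 20.6% and 14.2% of all genes. The median was 0.0056, and RAB6A was at 0.0056. Normexp without the offset gave 7 lower and 2 higher genes, against 19.5% and 12.7% of all genes, with a median of 0.0152 and 0.01525 for RAB6A. The offset alone gave 6 lower and 4 higher genes, against 19.4% and 13.9%. RAB22A was -0.999 with normexp alone, -0.51 with the offset alone and -0.45 with both, while RAB6B was -0.66, -0.39 and -0.49. An intensity trend in eBayes gave 6 lower and 4 higher genes, against 18% and 13% of all genes. Without a filter on dim probes limma called 0 lower and 0 higher RAB genes and 0 of all 32429 genes, while 9 of 54 RAB genes had an unadjusted p under 0.05. Adjusted in the same way, the methods' t-test also called 0 and 0, and 0 of all 16682 genes, with 7 of 27 at an unadjusted p under 0.05, against 11 in limma. The GC correction left 1 lower and 1 higher gene, against 11.4% and 8.65% of all genes, with a median of 0.011. It turned RAB30 to 0.36 and RAB1B to -0.082. The median over all tested probes of a gene was -0.13. Leaving out bright patches turned RAB34 to -0.17. Leaving out 1 pool, which leaves a lone array assumed to vary like the others, gave a median from -0.12 to 0.014, against -0.012 to 0.034 for all genes. RAB34 ran from -0.18 to 3.17 in these fits, in which fewer of all genes passed too. A replicate block, although pool numbers did not pair the arrays, gave 4 lower and 2 higher genes, against 16.5% and 8.04% of all genes, with a median of -0.08. Of 156 values of the 8 called genes under the alternatives 61 did not pass the threshold. None changed sign, which is no sign of stability, since 42 of them are identical to the reported value by construction, the filter favoured the direction of RAB22A, RAB5C, RAB9B and RAB10, and RAB10 was at -0.04 (adjusted p = 0.912) after the GC correction. Of 60 counts and medians 25 moved. Signal over background limits the low-fertile values of RAB22A, RAB5C, RAB9B and RAB10.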
